A study of Mus musculus with 27 samples.

Results

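The Hoxc cluster is the set of 9 homeobox genes Hoxc4, Hoxc5, Hoxc6, Hoxc8, Hoxc9, Hoxc10, Hoxc11, Hoxc12 and Hoxc13, which lie side by side on the plus strand of mouse chromosome 15. Its members were taken by gene name, and all 9 of 9 were present among the 23279 genes of the expression table. The RNA was compared between limb bud tissue grown from mouse embryonic stem (ES) cells and tissues dissected from embryos, in 27 libraries of 9 groups with 3 libraries each. ES–FLB and ES–HLB, the forelimb-type and hindlimb-type limb bud tissues, came from 1 ES line, EB5 with an mEGFP knock-in at 1 allele of Hand2, and only cells with the Hand2 reporter sorted on day 9 from 96 pooled aggregates entered the RNA. Both received BMP4 and matrigel early in culture, then LDN193189 (a BMP receptor inhibitor) and Wnt3 late. ES–FLB was given retinoic acid, and ES–HLB a retinoic acid antagonist, in between. Forelimb buds (FLB) and hindlimb buds (HLB) at an early stage and at E10.5, and branchial arch (BA), cardiac tissue (Ca) and tail bud (TB), were cut from Slc:ICR embryos, with tissue of 3 embryos in a library, and were not sorted. The labels give the same day, E10.0, for both early limb buds, whereas the legend of the study places the early FLB before the early HLB, so limb type and exact stage cannot be told apart in that pair. The embryos and the ES line also differ in strain, and whole buds were compared with sorted cells.

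Hox genes encode transcription factors that give cells their place along the head-to-tail axis. Within a cluster the genes at the 3′ end, which carry the low numbers, are active earlier and further towards the head, and those at the 5′ end, with the high numbers, later and further towards the tail. In the flank, Hox genes set where the limbs form, forelimb at an anterior and hindlimb at a posterior level, and the 5′ members of the Hoxc cluster are known for their use in the hindlimb and tail.

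The homeobox, which encodes the DNA-binding homeodomain of 60 residues, is the sequence that the members share, and it is shown here for 8 of them because similar sequence could divert reads from one member to another. The stretch printed encodes residues 42 to 58 of the homeodomain, most of the helix that contacts DNA in its major groove, and lies in the last exon of each of these genes. Sequences are from the GENCODE transcripts on GRCm38, 5′ to 3′ on the plus strand, with capitals at the bases that differ from Hoxc4.
Hoxc4 (chr15:103035786-103035836): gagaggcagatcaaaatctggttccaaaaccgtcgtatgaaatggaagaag
Hoxc6 (chr15:103010877-103010927): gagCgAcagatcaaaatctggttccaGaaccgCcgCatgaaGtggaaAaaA
Hoxc8 (chr15:102992694-102992744): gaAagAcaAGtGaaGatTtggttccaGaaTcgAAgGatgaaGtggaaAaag
Hoxc9 (chr15:102984053-102984103): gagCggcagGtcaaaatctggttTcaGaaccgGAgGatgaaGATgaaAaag
Hoxc10 (chr15:102970971-102971021): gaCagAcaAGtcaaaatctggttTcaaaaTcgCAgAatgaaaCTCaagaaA
Hoxc11 (chr15:102956603-102956653): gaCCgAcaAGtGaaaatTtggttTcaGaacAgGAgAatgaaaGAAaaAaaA
Hoxc12 (chr15:102938431-102938481): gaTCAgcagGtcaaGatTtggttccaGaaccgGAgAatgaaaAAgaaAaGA
Hoxc13 (chr15:102927333-102927383): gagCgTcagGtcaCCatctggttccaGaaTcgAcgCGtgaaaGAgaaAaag

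The stretch of Hoxc6 encodes the same residues as that of Hoxc4 and differs from it at 8 bases. From Hoxc8 to Hoxc13 between 11 and 18 bases differed, with 1 to 5 residues changed. Over the whole homeobox of 180 bases, Hoxc4 shared 70.6% of its bases with Hoxc6 and 51.1% with Hoxc12, and Hoxc9 shared 71.7% with Hoxc10. No stretch of 80 bases in a transcript of a member was found in a transcript of another gene, apart from 4.9% of those of Hoxc10, which also lie in a non-coding transcript annotated to Hoxc5. That transcript makes the annotated span of Hoxc5 in GENCODE reach across Hoxc6, Hoxc8, Hoxc9 and into Hoxc10, while the RefSeq spans of the 9 genes do not overlap. How the counting of the deposited values divided reads in such overlaps is not given in the sources used here, so values of Hoxc5 and of Hoxc10 may share reads.

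All values are CPM, in which each library sums to 1000000, rescaled between libraries, and a gene at fewer than 3 reads in a library was treated as at the floor (0.148 to 0.543 CPM). The early limb buds were sequenced most deeply, at 19642074 to 22141959 reads on genes, against 3661844 to 8541913 in the other groups, so depth goes with stage and cannot be told apart from it. Replicate 2 of the E10.5 HLB had lost the genes of several chromosomes, but chromosome 15 was complete and all 9 members had 3 values in each group. Limb mesenchyme genes summed to 1184 CPM or more in every complete limb bud library, but BA, at 1411 to 1445 CPM, lay above early FLB, so that this sum does not separate limb bud from BA. The 6 branchial arch genes summed to at least 491.4 CPM in BA and at most 103.5 CPM elsewhere, and tail bud genes to at least 252.0 CPM in TB and at most 3.81 CPM in the median library of any other group. Nothing in the labels says that replicates were separate cultures or litters, so p-values measure the spread between these libraries only.

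Hoxc4 and Hoxc5, at the 3′ end of the cluster, were the most forelimb-biased members. Hoxc4 stood at 40.1, 39.2 and 42.9 CPM in early FLB, at 16.4, 19.2 and 19.4 in E10.5 FLB and at 33.2, 31.1 and 34.5 in ES–FLB. In the hindlimb type it was at 8.47, 10.54 and 9.50 CPM in early HLB, 3.26, 3.22 and 4.94 in E10.5 HLB and 6.65, 7.64 and 5.78 in ES–HLB. All 9 forelimb-type libraries were above all 9 hindlimb-type libraries. Hoxc5 was at 77.8, 80.01 and 83.7 CPM in early FLB, 28.4, 25.4 and 37.3 in E10.5 FLB and 71.3, 57.8 and 68.8 in ES–FLB. Its levels in early HLB were 6.60, 5.97 and 5.40 CPM, in E10.5 HLB 3.26, 3.40 and 3.35, and in ES–HLB 7.83, 9.26 and 7.99. The libraries of the limb types again did not overlap. In TB, Hoxc4 (13.4 ± 0.887 CPM, SD, n = 3) and Hoxc5 (9.69 ± 1.195) lay between the types, although TB and ES–HLB overlapped for Hoxc5.

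Hoxc6 and Hoxc8, in the middle of the cluster, differed less between limb types than Hoxc4 and Hoxc5. Hoxc6 was at 40.5, 37.4 and 35.5 CPM in early FLB, 22.0, 24.7 and 23.1 in E10.5 FLB and 33.1, 34.1 and 37.0 in ES–FLB, and the early FLB and ES–FLB libraries overlapped. The hindlimb-type libraries held less Hoxc6, with 13.6, 16.4 and 14.9 CPM in early HLB, 8.51, 9.11 and 9.70 in E10.5 HLB and 6.26, 8.67 and 8.85 in ES–HLB. The forelimb-type and hindlimb-type libraries did not overlap for Hoxc6. Hoxc8 is a gene of the thoracic level. It was at 25.1, 23.7 and 29.7 CPM in early FLB and at 14.6, 23.2 and 17.98 in early HLB. By E10.5 the levels were 6.22, 6.18 and 4.42 CPM in FLB and 5.61, 8.22 and 6.35 in HLB, and these overlapped. ES–FLB had 9.12, 8.28 and 8.60 CPM and ES–HLB 3.52, 3.38 and 3.56, which did not.

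Hoxc9, Hoxc10 and Hoxc11 were hindlimb-biased. Hoxc9 was at 20.8, 21.8 and 22.3 CPM in early HLB, 16.5, 16.3 and 15.5 in E10.5 HLB and 6.52, 6.76 and 6.51 in ES–HLB. It was lower in the forelimb type, at 4.21, 5.00 and 4.88 CPM in early FLB, 0.519, 1.00 and 1.06 in E10.5 FLB and 4.75, 3.87 and 4.99 in ES–FLB. Early FLB and ES–FLB overlapped for Hoxc9.

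Hoxc10 reached the highest level of any member in the limb buds, at 100.3, 100.3 and 110.4 CPM in early HLB and 131, 132 and 138 in E10.5 HLB. ES–HLB stood well below both, at 29.0, 24.4 and 24.8 CPM. In early FLB it was at the floor, with 2, 3 and 2 reads, and in E10.5 FLB it was at 1.21, 1.503 and 1.77 CPM. ES–FLB, at 5.74, 5.34 and 5.73 CPM, lay above every embryonic forelimb library. Hoxc11 was at 8.47, 5.71 and 7.94 CPM in early HLB, 11.4, 14.5 and 13.1 in E10.5 HLB and 6.65, 4.56 and 6.15 in ES–HLB. It was at 0 in all 6 embryonic forelimb libraries, and in ES–FLB 2, 1 and 5 reads were found. Early HLB and ES–HLB overlapped for Hoxc11, while TB was highest (19.7 ± 2.37 CPM).

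Hoxc12 and Hoxc13, at the 5′ end, were genes of TB in these tissues. Hoxc13 is known for its use in hair and nails. Hoxc12 was at 30.6, 29.9 and 25.9 CPM in TB, at 0.391, 0.735 and 1.23 CPM in ES–HLB and at no more than 2 reads in any library of the other groups. Hoxc13 was at 82.5, 90.8 and 80.4 CPM in TB. Its levels in the limb buds were low but above the floor at E10.5, at 2.77, 3.01 and 3.18 CPM in FLB and 1.27, 1.07 and 1.06 in HLB. Early FLB held 20 reads of Hoxc13 in its 3 libraries together and early HLB 28. ES–HLB stood at 0.652, 1.03 and 1.11 CPM and no read was listed in ES–FLB.

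**Figure D1:**
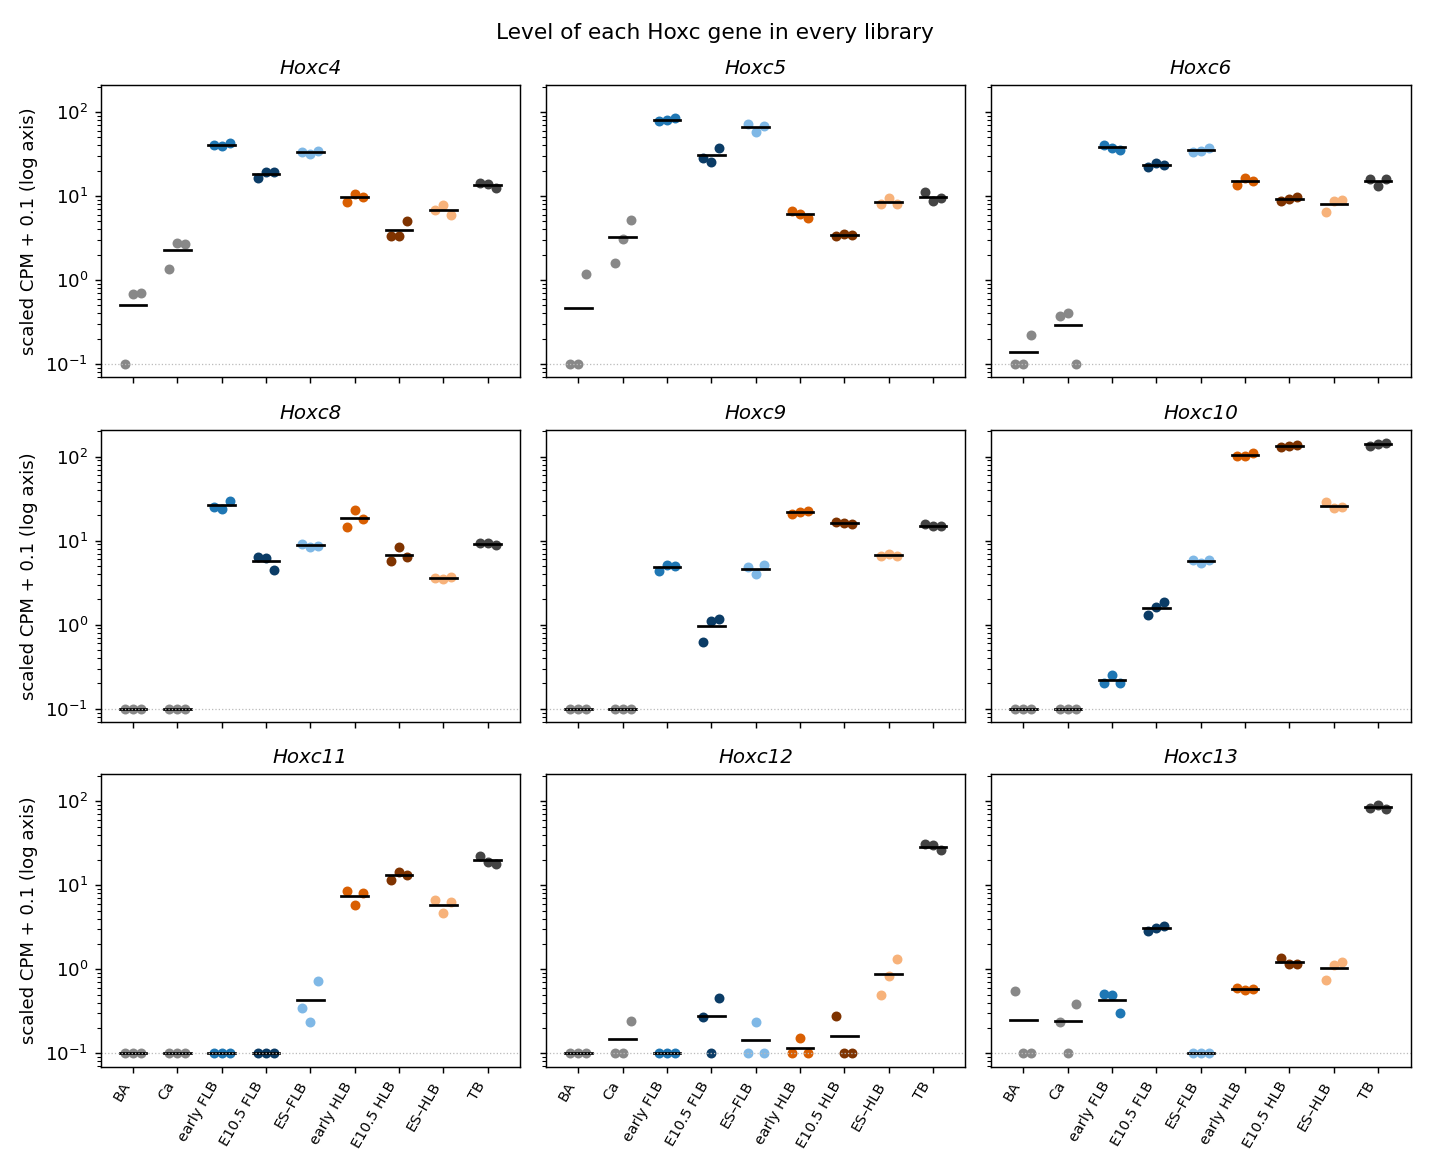
Level of each Hoxc gene in every library. The vertical axis is scaled CPM plus 0.1 on a log scale, points are libraries, bars are means of 3 libraries, and the dotted line marks 0 CPM. Hoxc4, Hoxc5 and Hoxc6 were higher in all 9 forelimb-type than in all 9 hindlimb-type libraries, Hoxc9, Hoxc10 and Hoxc11 the reverse, and Hoxc12 was above 20 CPM in TB alone.

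BA and Ca held little of the cluster. Hoxc8, Hoxc9, Hoxc10 and Hoxc11 were at 0 in all 6 of these libraries. Ca had Hoxc4 at 1.23, 2.69 and 2.60 CPM and Hoxc5 at 1.51, 2.99 and 5.06, and BA had 10 reads of Hoxc4 and 9 of Hoxc5 over its 3 libraries, the latter all in 1 library. Hoxc13 was at 4 reads in BA, all in 1 library.

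Levels of the genes were set against each other per kilobase of merged exons. In early FLB the cluster summed to 88.2 ± 2.51 CPM per kb, and Hoxc4, Hoxc5, Hoxc6 and Hoxc8 made up 23.3%, 31.2%, 27.2% and 15.9% of that sum. E10.5 FLB held a smaller sum (39.9 ± 2.61 CPM per kb) with Hoxc6 as the largest share (37.0%). ES–FLB summed to 70.9 ± 4.28, and Hoxc4, Hoxc5 and Hoxc6 had 23.5%, 31.8% and 31.0% of it. The hindlimb profile was led by 1 gene. Hoxc10 took 58.1% of 93.5 ± 4.37 CPM per kb in early HLB and 72.9% of 96.3 ± 2.96 in E10.5 HLB. In ES–HLB the sum was 33.6 ± 0.200 CPM per kb, and Hoxc10 took 40.7% of it, Hoxc6 14.95% and Hoxc4 10.1%. TB had the largest sum (175.8 ± 2.41), divided mainly between Hoxc10 (41.6%), Hoxc13 (19.5%) and Hoxc12 (15.9%).

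**Figure D2:**
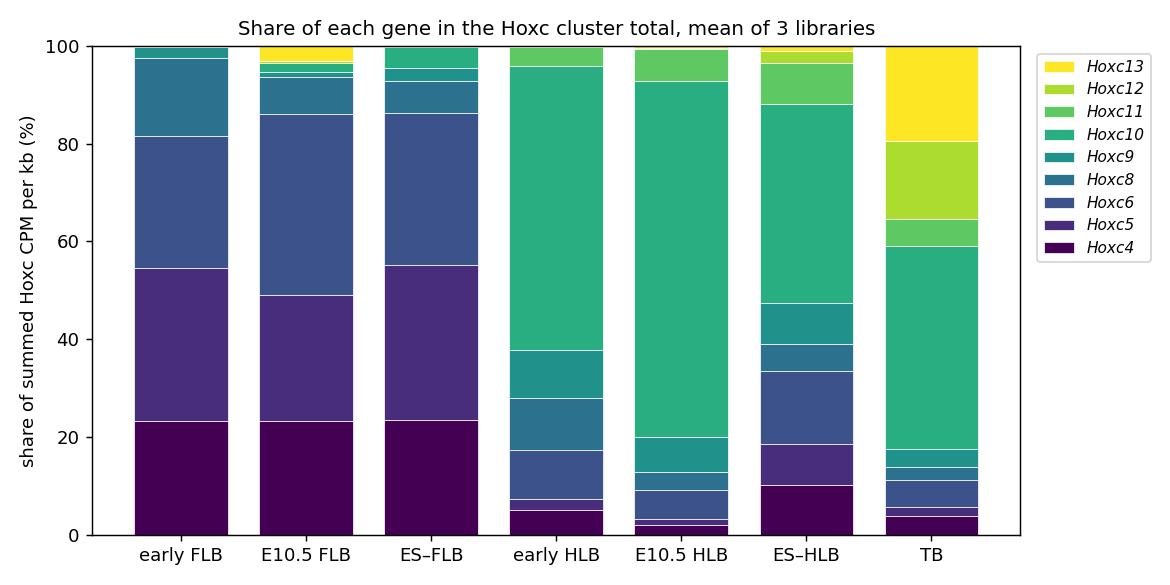
Share of each gene in the summed Hoxc expression. Bars stack the mean percentage over 3 libraries of the CPM per kb summed over the 9 genes, in the forelimb-type, hindlimb-type and TB groups. Hoxc4, Hoxc5 and Hoxc6 filled most of the 3 forelimb-type bars, and Hoxc10 had 58.1% of early HLB, 72.9% of E10.5 HLB, 40.7% of ES–HLB and 41.6% of TB.

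How far expression reached along the cluster was summarised as the mean paralogue number of the members, weighted by CPM per kb. The 3 forelimb-type groups lay close together, at 5.62 ± 0.0139 in early FLB, 5.77 ± 0.0364 in E10.5 FLB and 5.61 ± 0.0145 in ES–FLB. Early HLB stood at 8.92 ± 0.102 and E10.5 HLB at 9.52 ± 0.0297. ES–HLB, at 8.34 ± 0.190, was below both, and TB was the most posterior at 10.33 ± 0.0700. The same number for the Hoxa cluster placed ES–FLB at 4.75 ± 0.0256 and ES–HLB at 8.29 ± 0.117, with early FLB at 5.50 ± 0.354 and early HLB at 8.93 ± 0.150, and E10.5 FLB at 8.97 ± 0.138 and E10.5 HLB at 9.67 ± 0.0777 (2 complete libraries). The Hoxb cluster had nearly the same position in ES–FLB (3.65 ± 0.0597) and ES–HLB (3.66 ± 0.0695), whose libraries overlapped, while in the embryo FLB and HLB stood apart, at 5.11 ± 0.0346 and 6.40 ± 0.105 in the early buds and 4.01 ± 0.0899 and 6.10 ± 0.0474 at E10.5. The Hoxd cluster was lower in the ES-derived tissues than in the limb buds, with a sum of 8.48 ± 0.806 CPM per kb in ES–FLB and 20.2 ± 2.63 in ES–HLB against 142.5 to 246.4 in the means of the 4 limb bud groups.

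Between the early limb buds the question was which members distinguish hindlimb from forelimb. Of the 7 members tested, 3 were higher in HLB and 3 lower, where 9.73% of all genes tested were higher and 10.7% lower, and the median difference of the members was −0.50 on the log2 scale against 0.00 over all genes (0.001). Hoxc12 and Hoxc13 were too low for the test, and Hoxc10 and Hoxc11 passed the filter on low values through HLB alone, so that their counts describe the members and support nothing. Hoxc10 had the largest value (log2 difference 7.40 ± 0.11, SE, adjusted p = 7.07e-12). Counted in reads, 6013 against 7, the ratio was 879, with a 95% counting interval from 426 to 2186. Hoxc11 was at least 48.7-fold higher (adjusted p = 3.28e-07) and Hoxc9 higher by 2.09 ± 0.10 (adjusted p = 3.28e-07). Hoxc5 (−3.64 ± 0.08, adjusted p = 4.37e-10), Hoxc4 (−2.05 ± 0.09, adjusted p = 1.58e-07) and Hoxc6 (−1.31 ± 0.09, adjusted p = 4.07e-06) were lower in HLB. The difference of Hoxc8, which lies between these sets on the chromosome, was −0.50 ± 0.17 (adjusted p = 0.0734). It was called on leaving out early HLB replicate 2 (−0.67, adjusted p = 0.0043) and in a limma model of all 27 libraries (adjusted p = 0.0357). Beside this pair, 3 of 5 endothelial genes were called higher in HLB and none lower, with sums of 304.5 to 367.4 CPM in HLB and 293.6 to 308.9 in FLB. Tek (−0.43 ± 0.17, adjusted p = 0.119) and Kdr (−0.14 ± 0.10, adjusted p = 0.366) had negative values and were not called. In whole buds fewer cells of a type and less RNA per cell cannot be told apart, and the part of these cells was not tested.

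At E10.5, 8 members were tested, 3 were higher in HLB and 4 lower, beside 12.4% and 14.4% of all genes, with medians of −0.43 for the members and −0.01 for all genes. Each member called in both pairs had the direction it had in the early buds. Hoxc10 was higher by 6.08 ± 0.13 (adjusted p = 2.87e-36) and Hoxc9 by 3.63 ± 0.22 (adjusted p = 1.23e-17), and Hoxc11 was at least 25.1-fold higher (adjusted p = 1.67e-18). Hoxc9 and Hoxc11 reached 1 CPM in 3 libraries in HLB alone and passed the filter through it, so their tests and their part in the count are a description. Hoxc5 (−2.99 ± 0.16, adjusted p = 5.3e-20), Hoxc4 (−2.15 ± 0.17, adjusted p = 9.53e-14) and Hoxc6 (−1.31 ± 0.13, adjusted p = 4.49e-11) were lower. Hoxc13, at the far 5′ end, was also lower in HLB (−1.09 ± 0.28, adjusted p = 0.00267), the opposite direction to Hoxc10 and Hoxc11. Hoxc12, which lies between Hoxc11 and Hoxc13, was too low for the test. Hoxc8 was at 0.24 ± 0.20 (adjusted p = 0.398). Somite genes moved with this pair. Of the 5 tested, 4 were called lower in HLB and none was called higher (median −1.06). The list summed to 263.1 to 304.6 CPM in FLB and 122.9 to 133.9 in the 2 complete HLB libraries. Their part in the Hoxc differences was not tested.

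The ES-derived pair had 3 members higher in ES–HLB and 4 lower of 7 tested, where 13.2% and 11.9% of all genes were called, with a median of −1.20 for the members and 0.01 for all genes. Hoxc10 was higher by 2.12 ± 0.12 (adjusted p = 3.59e-14) and Hoxc11 by 2.94 ± 0.27 (adjusted p = 4.61e-10). In reads the ratio of Hoxc11, 132 against 8, was 17.2 with a counting interval from 8.46 to 40.6. Hoxc11 passed the filter through ES–HLB alone, so its test is a description. Hoxc9 differed little (0.50 ± 0.17, adjusted p = 0.0285), and this call was lost on leaving out ES–FLB replicate 2 (adjusted p = 0.13) or any 1 ES–HLB library (0.0664 to 0.0735). Hoxc5 (−2.91 ± 0.10, adjusted p = 1.81e-19), Hoxc4 (−2.22 ± 0.12, adjusted p = 4.19e-15), Hoxc6 (−2.08 ± 0.12, adjusted p = 3.2e-14) and Hoxc8 (−1.20 ± 0.17, adjusted p = 1.4e-06) were lower in ES–HLB. Beside this pair, 8 neural tube genes summed to 24.8 to 31.5 CPM in ES–HLB and 11.5 to 15.95 CPM in ES–FLB, with 4 and 3 of the 8 above the floor, and 5 pluripotency genes, all above the floor in both, to 68.1 to 95.02 and 18.8 to 27.4 CPM. Sox2 is on both lists, with means of 23.95 CPM in ES–HLB and 9.11 in ES–FLB, while Nkx6-1 stood at 0.940 and 2.53. Of the 4 neural tube genes tested 2 were higher in ES–HLB and 1 lower, and all 5 pluripotency genes were higher. Erythroid genes, with 5 of 5 above the floor in ES–HLB and 3 in ES–FLB, summed to 87.0 to 162.9 and 5.36 to 8.15 CPM, and all 4 tested were higher in ES–HLB (median 3.62). Ectoderm genes summed to 126.4 to 139.2 CPM in ES–HLB and 67.2 to 106.6 in ES–FLB, with 3 of 6 tested higher, and endothelial genes to 37.2 to 42.8 and 23.7 to 27.8 CPM, with 3 of 5 higher. No tested gene of these 3 lists was called lower in ES–HLB, and Epcam was at −0.11 ± 0.13 (adjusted p = 0.604). Their part in the Hoxc differences was not tested. Tbx5, Tbx4 and Pitx1, which mark limb type, were at −4.31 ± 0.14, 4.15 ± 0.45 and 3.18 ± 0.11 for ES–HLB against ES–FLB, all called.

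**Figure D3:**
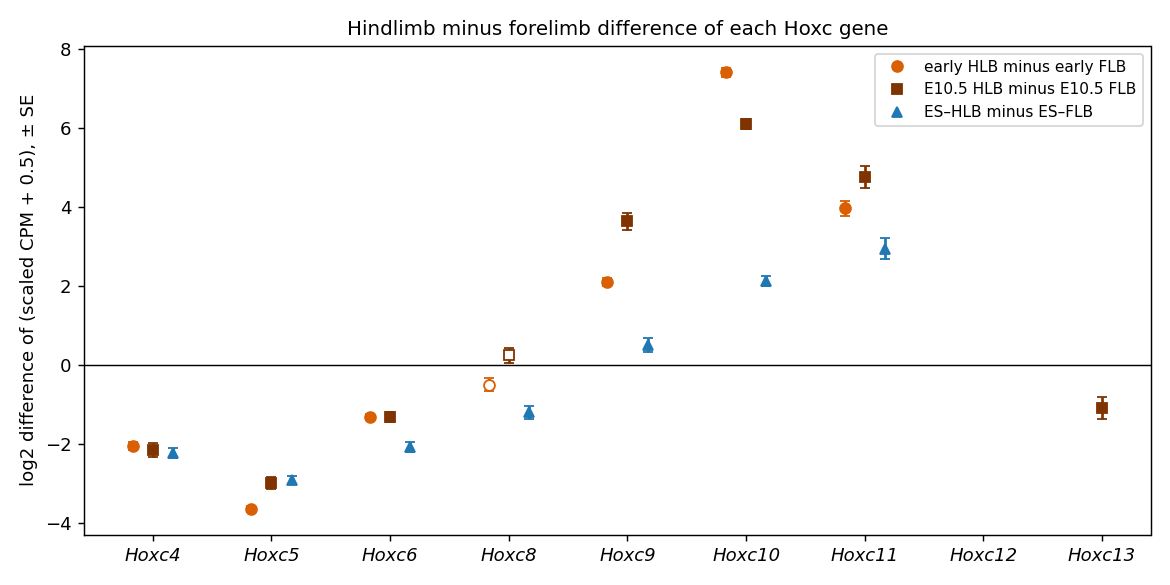
Hindlimb minus forelimb difference of each Hoxc gene. The vertical axis is the log2 difference of scaled CPM plus 0.5 with its SE, for the early pair, the E10.5 pair and the ES-derived pair (6 libraries each), and filled symbols passed an adjusted p of 0.05. Hoxc4 to Hoxc6 lay below 0 and Hoxc9 to Hoxc11 above it in all 3 pairs, and Hoxc13 was lower at E10.5. Hoxc8 was at −0.50 in the early pair and 0.24 at E10.5, both not called, and at −1.20 in the ES-derived pair.

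Whether the hindlimb-to-forelimb difference itself was alike in culture and embryo was tested as the difference of the differences. Against the early embryo pair 6 of 7 members were called (22.7% of all genes), 1 with a positive and 5 with a negative value. Hoxc10 had the largest value (−5.28 ± 0.16, adjusted p = 1.28e-14), followed by Hoxc9 (−1.59 ± 0.18, adjusted p = 2.38e-06) and Hoxc11 (−1.02 ± 0.32, adjusted p = 0.0262). Each of these had a smaller hindlimb excess in culture. Hoxc6 (−0.76 ± 0.16, adjusted p = 0.00159) and Hoxc8 (−0.70 ± 0.20, adjusted p = 0.0129) had a larger forelimb excess in culture. Hoxc5 was at 0.74 ± 0.14 (adjusted p = 0.00055) and Hoxc4 at −0.18 ± 0.15 (adjusted p = 0.444). In the limma model of all 27 libraries Hoxc5 was no longer called (adjusted p = 0.323). For Hoxc11 the call was lost on leaving out ES–FLB replicate 3, early HLB replicate 1 or 3, or ES–HLB replicate 2 (adjusted p = 0.0668 to 0.0761). Against the E10.5 pair, 6 of 8 members were called (19.3% of all genes). Hoxc10 (−3.97 ± 0.18, adjusted p = 4.39e-19), Hoxc9 (−3.13 ± 0.27, adjusted p = 3.91e-11) and Hoxc11 (−1.81 ± 0.36, adjusted p = 0.000232) had a smaller hindlimb excess in culture. Hoxc8 (−1.44 ± 0.26, adjusted p = 6.37e-05) and Hoxc6 (−0.77 ± 0.18, adjusted p = 0.00141) also had the lower signed value in culture, and Hoxc13 the higher (2.59 ± 0.38, adjusted p = 3.29e-06). Since embryonic FLB had 0 to 10 reads of Hoxc10 and Hoxc11 in a library, the sizes for these genes depend on the pseudocount of 0.5. Hoxc11 passed the filter through the hindlimb-type libraries alone in both of these tests. Hoxc13 had 21 reads in ES–HLB and 0 in ES–FLB, and was too low for the test in the ES-derived pair. It passed the filter through the E10.5 limb buds, so its test is a description and its size also depends on the pseudocount.

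The early and E10.5 buds were compared for the change with stage. In FLB, 2 of 7 members tested were higher at E10.5 than in the early bud and 5 lower, beside 32.2% and 32.5% of all genes, with a median of −1.13 for the members and 0.00 (0.003) for all genes. Hoxc13 (2.07 ± 0.23, adjusted p = 7.67e-07) and Hoxc10 (1.68 ± 0.26, adjusted p = 3.15e-05) rose, the latter from 7 to 26 reads, a ratio of 12.7 at equal depth (5.35 to 34.6). Both were below 1 CPM in every early FLB library and passed the filter through E10.5 FLB alone, so that these 2 values and their count are a description. Hoxc8 (−2.14 ± 0.14, adjusted p = 8.38e-10) and Hoxc9 (−1.96 ± 0.22, adjusted p = 7.62e-07) fell the most, followed by Hoxc5 (−1.41 ± 0.12), Hoxc4 (−1.13 ± 0.09) and Hoxc6 (−0.69 ± 0.08). Hoxc9 reached 1 CPM in 3 libraries in early FLB alone and passed the filter through it, so its test and its part in the count are a description.

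In HLB, 3 of 8 members were higher at E10.5 and 5 lower, beside 14.2% and 18.2% of all genes, with medians of −0.55 and −0.02. Hoxc10 (0.37 ± 0.05, adjusted p = 0.000274), Hoxc11 (0.79 ± 0.16, adjusted p = 0.00224) and Hoxc13 (0.73 ± 0.26, adjusted p = 0.0476) rose. The call of Hoxc13, which had 28 and 19 reads, was lost on leaving out any 1 early HLB library (adjusted p = 0.0946 to 0.148), and with the replicate number as a block (0.0709), and Hoxc13 passed the filter through E10.5 HLB alone. Hoxc8 (−1.39 ± 0.18, adjusted p = 0.000133), Hoxc4 (−1.24 ± 0.18, adjusted p = 0.000262), Hoxc5 (−0.76 ± 0.16), Hoxc6 (−0.68 ± 0.12) and Hoxc9 (−0.42 ± 0.09) fell. Without rescaling of the libraries, where replicate 2 of the E10.5 HLB (scaling factor 0.654) enters at the level that its lost genes give it, limma called none of the 8 members at an adjusted p of 0.05 and 6 at an unadjusted p of 0.05. Summed somite markers moved with stage, with 64.7 to 73.1 CPM in early and 263.1 to 304.6 in E10.5 FLB, and 50.7 to 74.5 in early and 122.9 to 133.9 in E10.5 HLB (2 complete libraries). Summed ectoderm markers stood at 386.2 to 495.3 CPM in early and 209.9 to 226.8 in E10.5 FLB, and at 340.3 to 410.7 in early and 243.6 to 259.5 in E10.5 HLB. The part of these cells was not tested.

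**Figure D4:**
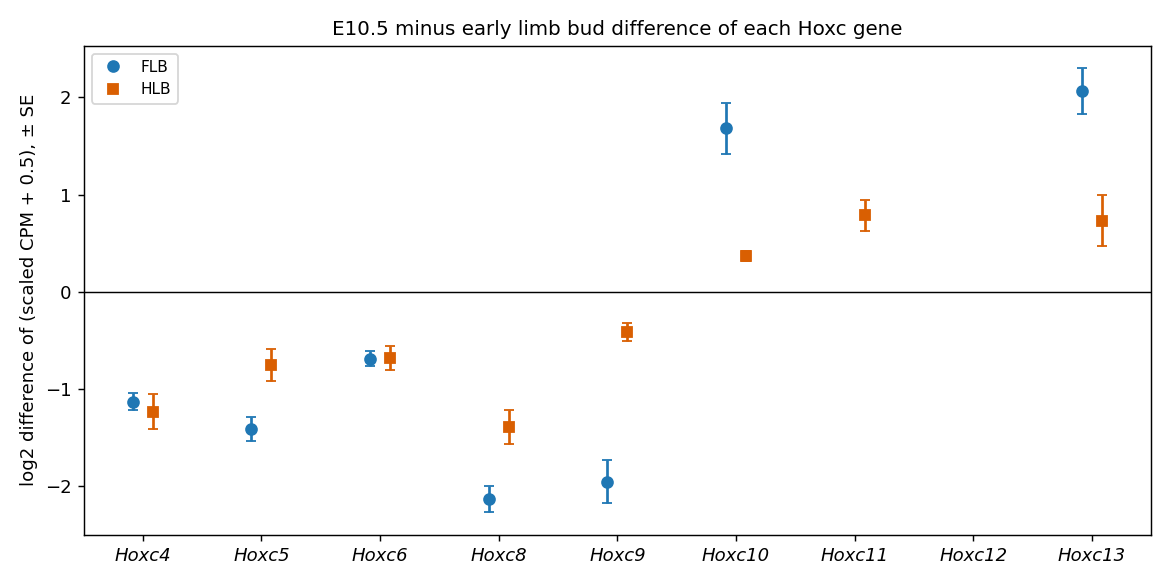
E10.5 minus early limb bud difference of each Hoxc gene. The vertical axis is the log2 difference of scaled CPM plus 0.5 with its SE, 6 libraries for FLB and 6 for HLB, and all symbols drawn passed an adjusted p of 0.05. Hoxc4 to Hoxc9 fell in both limb types, and Hoxc10 and Hoxc13 rose in both.

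ES–FLB and ES–HLB were next set against embryonic limb buds of both stages. These comparisons use the same ES libraries at each stage and are therefore not independent. ES–FLB was close to early FLB for the 3′ members. Of 6 members tested 1 was higher and 3 lower, beside 43.1% and 38.7% of all genes, with a median of −0.21 for the members and 0.06 for all genes. Hoxc4 (−0.30 ± 0.07, adjusted p = 0.000944) and Hoxc5 (−0.29 ± 0.07, adjusted p = 0.00172) were slightly lower, and both calls were lost without rescaling (adjusted p = 0.106 and 0.155) and in the model of all 27 libraries (0.221 and 0.44). Hoxc6 (−0.12 ± 0.07, adjusted p = 0.143) and Hoxc9 (−0.05 ± 0.16, adjusted p = 0.777) were not called. Hoxc8 was lower by −1.54 ± 0.11 (adjusted p = 1.3e-09), and Hoxc10 was higher by 3.31 ± 0.19 (adjusted p = 1.13e-10), 132 against 7 reads, a ratio of 47.6 with a counting interval from 22.5 to 120.8. Hoxc10 passed the filter through ES–FLB alone, so its test and its count are a description.

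Against E10.5 FLB, 6 of 7 members were higher in ES–FLB and 1 lower, beside 36.6% and 34.9% of all genes, with medians of 0.83 and 0.01. Hoxc9 (1.91 ± 0.25, adjusted p = 1.16e-07) and Hoxc10 (1.62 ± 0.22, adjusted p = 2e-07) were higher by the most, and Hoxc4, Hoxc5, Hoxc6 and Hoxc8 were higher by 0.57 to 1.12. Hoxc13, the lower member, had a larger difference than any of these (−2.80 ± 0.28, adjusted p = 1.26e-09), with E10.5 FLB at least 7.79-fold above the floor of ES–FLB. Hoxc9 passed the filter through ES–FLB alone and Hoxc13 through E10.5 FLB alone, so their tests are a description.

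ES–HLB was lower than early HLB in 5 of 7 members and higher in 1, beside 36.9% and 41.7% of all genes, with medians of −0.88 and 0.06. Hoxc8 (−2.24 ± 0.16, adjusted p = 1.79e-08), Hoxc10 (−1.97 ± 0.08, adjusted p = 5.37e-11) and Hoxc9 (−1.64 ± 0.11, adjusted p = 6.5e-09) were the members with the largest differences. Hoxc6 (−0.88 ± 0.14, adjusted p = 6.39e-05) and Hoxc4 (−0.48 ± 0.14, adjusted p = 0.00776) were lower by less, Hoxc5 was higher (0.45 ± 0.14, adjusted p = 0.0098), and Hoxc11 was at −0.32 ± 0.18 (adjusted p = 0.117, and 0.0256 without early HLB replicate 2). In the model of all 27 libraries Hoxc4 (adjusted p = 0.0552) and Hoxc5 (0.234) were no longer called. Against E10.5 HLB, 4 of 8 members were lower and 2 higher, beside 33.7% and 39.6% of all genes, with medians of −0.52 and 0.06. Hoxc10 (−2.34 ± 0.07, adjusted p = 2.85e-22), Hoxc9 (−1.22 ± 0.14), Hoxc11 (−1.11 ± 0.17) and Hoxc8 (−0.84 ± 0.20) were lower, and Hoxc5 (1.20 ± 0.18) and Hoxc4 (0.76 ± 0.20) higher. Hoxc6 (−0.20 ± 0.16, adjusted p = 0.266) and Hoxc13 (−0.20 ± 0.28, adjusted p = 0.522) were not called. Whole buds also held RNA of vessels and surface ectoderm. The 5 endothelial genes summed to between 273.4 and 367.4 CPM in the limb buds, to 23.7 to 27.8 in ES–FLB and to 37.2 to 42.8 in ES–HLB, and the 8 ectoderm genes to at least 209.9, to 67.2 to 106.6 and to 126.4 to 139.2. Their part in the Hoxc differences was not tested.

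**Figure D5:**
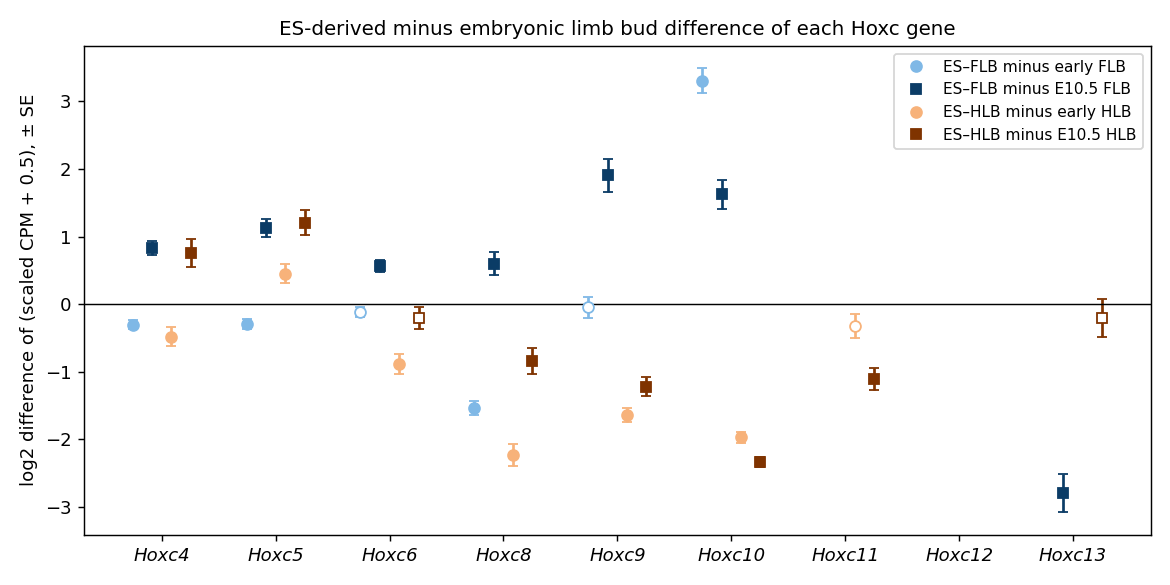
ES-derived minus embryonic limb bud difference of each Hoxc gene. The vertical axis is the log2 difference of scaled CPM plus 0.5 with its SE (6 libraries a comparison), circles are against the early bud and squares against the E10.5 bud, and open symbols did not pass an adjusted p of 0.05. Hoxc8, Hoxc9 and Hoxc10 of ES–HLB lay below 0 at both stages, and Hoxc10 of ES–FLB lay above 0 at both.

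TB, the posterior end of the embryo, was compared with E10.5 HLB for the reach of the cluster beyond the hindlimb level. All 9 members were tested, 7 were higher in TB and none lower, beside 24.3% and 19.5% of all genes, with medians of 0.69 and 0.02. Hoxc12 (5.72 ± 0.22, adjusted p = 1.66e-20) and Hoxc13 (5.70 ± 0.14, adjusted p = 7.8e-26) had the largest values. In reads, Hoxc13 was 74.8-fold higher (47.7 to 124.4), and Hoxc12 rested on 711 reads against 1 and passed the filter through TB alone, so its test and its part in the count are a description. Hoxc4 (1.71 ± 0.17, adjusted p = 8.02e-10), Hoxc5 (1.40 ± 0.18, adjusted p = 8.21e-08), Hoxc6 (0.69 ± 0.14, adjusted p = 0.000105) and Hoxc11 (0.59 ± 0.12, adjusted p = 0.000246) were also higher. Hoxc8 was at 0.41 ± 0.16 (adjusted p = 0.0415), a call lost on leaving out any 1 TB library or E10.5 HLB replicate 1 or 3 (adjusted p = 0.0716 to 0.173). Hoxc10 (0.06 ± 0.05, adjusted p = 0.396) and Hoxc9 (−0.10 ± 0.12, adjusted p = 0.53) were not called. The 8 neural tube genes, all above the floor, summed to 158.3 to 184.5 CPM in TB and to at most 0.882 CPM in E10.5 HLB, and 6 somite genes to 562.9 to 572.8 and 122.9 to 133.9 CPM. The part of these tissues was not tested.

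BA was compared with E10.5 FLB as tissue of the head region with little Hoxc expression. All 6 members tested were lower in BA and none higher, beside 10.1% and 11.3% of all genes, with medians of −4.04 and 0.00 (0.003), and −4.23 for the members with those at 0 set to their bound. The 6 members passed the filter on low values through FLB, so their count is a description. Hoxc6 (−5.47 ± 0.22, adjusted p = 2.36e-16), Hoxc5 (−5.37 ± 0.48, adjusted p = 0.000285) and Hoxc4 (−4.48 ± 0.26, adjusted p = 2.86e-12) had the largest differences, and Hoxc6 had 1 read in BA. Hoxc8 was at least 15.9-fold and Hoxc10 at least 4.23-fold higher in FLB than the floor of BA.

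Non-coding genes of the cluster were read beside its members. Hotair, a long non-coding RNA transcribed from between Hoxc11 and Hoxc12 on the opposite strand, was at 14.9, 12.04 and 12.5 CPM in TB, 5.07, 3.93 and 3.53 in E10.5 HLB, 1.92, 0.934 and 1.46 in early HLB and 0.652, 1.76 and 0.861 in ES–HLB. It had 1 read in ES–FLB and none in embryonic FLB, BA or Ca. Its level was higher in TB than in E10.5 HLB (1.55 ± 0.17, adjusted p = 3.42e-09). The gene of miR-196a, which lies between Hoxc9 and Hoxc10 at chr15:102973365-102973386 (GRCm38, plus strand), is shown because, within the cluster, matches to its seed are found in Hoxc8 alone. Its mature sequence from RefSeq, with the seed (bases 2 to 8) in capitals, is the first line, and the next lines are the matches to that seed in the 3′ UTR of Hoxc8, with capitals at bases complementary to the miRNA in an ungapped pairing.
mmu-miR-196a-5p: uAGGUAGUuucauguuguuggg
Hoxc8 first site: CaCucacAacUcuAACUACCUg
Hoxc8 second site: uaaAuCuuuAacAuACUACCUA

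This was 1 of the 9 members, against 8 of 30 other Hox genes and 6.6% of all genes with a 3′ UTR. The row of the miRNA gene (Mir196a-2) was at 0 in all 27 libraries and Mir615, a miRNA gene within Hoxc5, had 1 read, and mRNA libraries do not measure mature miRNAs. Of the nearest protein-coding genes outside the cluster, none was among the 3 genes with the profile most like that of any member. Calcoco1 had means between 25.7 and 79.8 CPM and Smug1 between 17.2 and 30.7 over the 9 groups.

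Among the other 30 Hox genes, 6 were higher and 17 lower in early HLB than in early FLB of 29 tested, 5 and 17 of 27 at E10.5, and 8 and 15 of 27 in ES–HLB against ES–FLB, with medians of −0.90, −0.62 and −0.85. The Hoxa genes had values in 2 libraries of E10.5 HLB, because they were missing in replicate 2. The group 10 and 11 genes of other clusters were compared with Hoxc10 and Hoxc11. Hoxa10 was higher in early HLB by 2.66 ± 0.29 (adjusted p = 0.00488) and in ES–HLB by 2.06 ± 0.07 (adjusted p = 4.5e-19), and by 0.21 ± 0.05 (adjusted p = 0.00271) at E10.5. Hoxd10 was at 0.53 ± 0.31 (adjusted p = 0.306) in the early pair, −0.42 ± 0.07 (adjusted p = 4.28e-06) at E10.5 and 2.40 ± 0.26 (adjusted p = 1.53e-08) in the ES-derived pair. Hoxa11 was higher in the hindlimb type in all 3 pairs, by 2.32 ± 0.35 (early), 0.65 ± 0.08 (E10.5) and 2.48 ± 0.10 (ES-derived). Hoxd11 was higher in the early pair (3.80 ± 0.22, adjusted p = 2.24e-05) and the ES-derived pair (2.08 ± 0.26, adjusted p = 2.2e-07) and lower in HLB at E10.5 (−0.59 ± 0.08, adjusted p = 2.44e-07). Hoxc13 was tested at E10.5 alone, where it was lower in HLB. There Hoxd13 was lower (−1.13 ± 0.06, adjusted p = 7.83e-21) and Hoxa13 was not called (−0.35 ± 0.16, adjusted p = 0.0883). In the early pair Hoxd13 (3.07 ± 0.19, adjusted p = 6.95e-05) and Hoxa13 (2.68 ± 0.20, adjusted p = 9.57e-06) were higher in HLB, as they were in ES–HLB (2.48 ± 0.18, adjusted p = 6.31e-12, and 1.57 ± 0.26, adjusted p = 1.94e-05). Hoxa13 in the early and ES-derived pairs, and Hoxd10 and Hoxd11 in the ES-derived pair, reached 1 CPM in 3 libraries in the hindlimb type alone. They passed the filter through it, so these tests are a description.

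Of the genes known to act on the onset of Hox expression, Cdx2 (5.54 ± 0.22, adjusted p = 2.74e-19) and Cdx4 (5.49 ± 0.22, adjusted p = 1.88e-19) were higher in TB than in E10.5 HLB, while Cdx1 (0.54 ± 0.25, adjusted p = 0.086) and Gdf11 (0.03 ± 0.08, adjusted p = 0.749) were not called. E10.5 HLB had 2 reads of Cdx2 and 1 of Cdx4, over 2 libraries because both genes were missing in replicate 2. Cdx2 and Cdx4 passed the filter through TB alone, so their tests are a description and their sizes depend on the pseudocount of 0.5. Between limb types, 2 of the 4 were tested in the early pair, where Cdx1 was lower in HLB (−2.37 ± 0.09, adjusted p = 9.55e-08) and Gdf11 higher (0.49 ± 0.11, adjusted p = 0.0125). Neither was called at E10.5 (Cdx1 0.79 ± 0.37, adjusted p = 0.119, and Gdf11 0.18 ± 0.08, adjusted p = 0.104). In the ES-derived pair Gdf11 alone was tested (0.27 ± 0.11, adjusted p = 0.0768).

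Profiles over the 9 group means of log2(CPM + 0.5) were compared by Pearson's r as a description, with groups that share stage, depth and tissue. For neighbours in the cluster, r was 0.97 for Hoxc4 and Hoxc5, 0.85 for Hoxc5 and Hoxc6, 0.94 for Hoxc6 and Hoxc8, 0.81 for Hoxc8 and Hoxc9, 0.88 for Hoxc9 and Hoxc10, 0.96 for Hoxc10 and Hoxc11, 0.58 for Hoxc11 and Hoxc12 and 0.94 for Hoxc12 and Hoxc13. Hoxc5 and Hoxc11 were the least alike (r = −0.20). Among 12429 genes, with the members left out of the ranking, Hoxa5 was most like Hoxc4 (0.95) and Hoxa4 most like Hoxc5 (0.93). Mira was most like Hoxc6 (0.97) and Hoxa7 most like Hoxc8 (0.97). Gm13157 was most like Hoxc9 (0.91), and Gm53 most like Hoxc10 and Hoxc11 (0.96 and 0.95). Hotair, which lies within the cluster, was next for Hoxc10 and Hoxc11 (0.88 and 0.95). The profiles of Hoxc12 and Hoxc13 followed their level in TB, and the genes most like them were Cer1 (0.99) and T (0.97).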

How the data were processed

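RNA of 27 libraries in 9 groups of 3 was analysed, with groups and replicate numbers from the sample labels. The authors made stranded, poly(A)-selected, single-end libraries, mapped reads with HISAT2 2.0.4 to mm10, counted with Cuffdiff, tested with edgeR 3.16.2 and deposited a table of CPM in which each library sums to 1000000. The Cufflinks release in the submitters' processing notes is 2.1.1. The strand setting of the counting is not given in the sources used here. CPM are not counts, so count tests planned as alternatives were not run. Depth was estimated from the spacing of low values, and reads in the text are these estimates. In each library 94.4% to 99.1% of values up to 100 reads lay within 0.05 of a whole read. Floors (3 reads) and 95% exact counting intervals cover counting error only.

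Libraries were rescaled by an unweighted trimmed mean of log ratios (30% of ratios and 5% of levels trimmed). The test was limma 3.58.1 (trend, robust) in R 4.3.3 on the log2 of CPM plus 0.5, for genes that reached 1 CPM in 3 libraries of the fit, with Benjamini-Hochberg adjustment over all genes tested and calls at an adjusted p of 0.05. Fold changes on this scale understate those of low genes. Pairs of groups used their own 6 libraries, and differences of differences 12. In replicate 2 of the E10.5 HLB, 8340 values were set to missing, a choice made after seeing the values. Nearly all expressed genes of chromosomes 5, 6, 7, 8, 9, X, Y and the end of chromosome 4 were listed at 0 there. Lengths are merged GENCODE exons of the main coding transcripts on GRCm38. Libraries with the same replicate number had weakly correlated deviations from the group means (correlations −0.091 to 0.134). This cannot show whether they shared embryos or cultures, and the main test used no pairing.

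Named genes were the 9 members, other Hox genes of the same number, onset regulators, cluster non-coding genes, flanking genes, limb type genes and the 3 genes most like each member, among which the text gives the first or the second. Some items are not reported here. The members and lists were chosen with earlier results of these data known. Figures were drawn with matplotlib 3.10.9 in Python 3.11.15. The script was tested on simulated data.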

Additional observations from a re-analysis of the deposited data

Results flagged for a closer look

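The hindlimb minus forelimb difference of the ES-derived pair differed from that of the early embryo pair for 6 of 7 Hoxc genes tested. This was a test of the difference of the differences on the log2 scale (limma, 12 libraries), which called 22.7% of all genes. The values were −5.28 for Hoxc10, −1.59 for Hoxc9, −1.02 for Hoxc11, −0.76 for Hoxc6, −0.70 for Hoxc8 and 0.74 for Hoxc5. The call of Hoxc11 was lost on leaving out ES–FLB replicate 3, early HLB replicate 1 or 3, or ES–HLB replicate 2 (adjusted p = 0.0668 to 0.0761). That of Hoxc5 was lost in the limma model of all 27 libraries (adjusted p = 0.323). Hoxc10 was at 26.1 CPM in ES–HLB and 5.61 in ES–FLB, and at 103.7 and 0.117 in the early embryo pair. Against the E10.5 pair, 6 of 8 members tested were called, beside 19.3% of all genes. The difference was −3.97 for Hoxc10, −3.13 for Hoxc9, −1.81 for Hoxc11, −1.44 for Hoxc8, −0.77 for Hoxc6 and 2.59 for Hoxc13. The value of Hoxc13 rests on 21 reads in ES–HLB and 0 in ES–FLB. Sizes for Hoxc10, Hoxc11 and Hoxc13 depend on the pseudocount of 0.5, and Hoxc11 passed the filter through the hindlimb-type libraries alone. Groups of 3 libraries were not searched for outlying libraries.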

How the results depend on the processing

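No called value of a member changed sign under the settings run, some values that were not called (Hoxc4, Hoxc5, Hoxc6, Hoxc9, Hoxc10) did, and 1498 of 1565 values kept their side of the threshold. The number of members called moved by over 1.5 times in 10 of 220 refits. For E10.5 HLB against early HLB, 8 members were called, but 0 with the CPM as deposited, 4 at an adjusted p of 0.001 and 5 with the incomplete library entered as listed (a setting added after seeing the data, like limma without trend and robust). With the CPM as deposited all 8 members kept their sign, 6 passed an unadjusted p of 0.05 and the adjusted p of limma ranged from 0.0588 to 0.647. For ES–FLB against early FLB, 4 calls became 2 with the CPM as deposited and 2 in the model of all 27 libraries. For TB against E10.5 HLB, 7 became 4 with the CPM as deposited. For the ES difference minus the early embryo difference, 6 became 3 at an adjusted p of 0.001. For BA against E10.5 FLB, leaving out 1 library gave 1 to 6 calls, with 1 call on leaving out any one FLB library, because 1 member then passed the filter on low values. The position along the cluster moved by more than 1 SD without the length, to 5.51 in early FLB, 5.70 in E10.5 FLB and 5.50 in ES–FLB. Without Hoxc5 it was 5.90 in early FLB, 6.04 in E10.5 FLB, 5.89 in ES–FLB, 9.57 in E10.5 HLB, 8.65 in ES–HLB and 10.43 in TB. The replicate block changed 1 call, that of Hoxc13 between stages of HLB (adjusted p = 0.0709). Whether libraries with the same number shared embryos or cultures is not known. Count tests with edgeR and DESeq2 were not run, because the values are not counts. Depth limits Hoxc12 outside TB, Hoxc13 in the limb buds, and Hoxc10 and Hoxc11 in FLB.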
